A study of Bos indicus and Bos taurus with 17 samples.

Results

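In Kashmiri cattle, late lactation was compared with early lactation in the milk epithelial cells, as the ratio of expression on day 250 in milk (D250) to that on day 15 (D15). Genes were taken when they had a name and at least 1 FPKM in either group. FPKM is a level in which the fragments assigned to a transcript are divided by its length and by the depth of the library. Of 21631 distinct gene names in the series, 11487 met this rule, and 11434 of them had a value above 0 on both days and so a ratio. The series holds the Kashmiri and Jersey breeds, each at D15, D90 and D250, which stand for early, mid and late lactation. The Kashmiri groups were 3 milk samples each and D15 was sampled in March, D90 in July and D250 in December, so that day and season cannot be told apart. By the labels, 2 of the 3 D15 samples and 2 of the 3 D250 samples came from the third lactation and the others from the second, while all 3 D90 samples came from the second. The study describes a single set of cows per breed, milked on each of the days and all in the third lactation, which the lactation numbers of the labels do not match. The cells were captured from milk with magnetic beads coated with an antibody against cytokeratin 18, the product of KRT18.

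The table used here holds 1 value per gene and group, computed by the authors over the samples of the group. There were therefore no replicate values, no errors and no tests, every value is a single group value, and a single cow could carry any of them. The number of reads behind a value is not known either. Levels are written below in the order D15, D90 and D250. A fold is the plain ratio of FPKM, and log2 is that of (D250 + 1)/(D15 + 1), where the added 1 FPKM holds low genes back. A gene was counted as 4-fold higher or lower when this log2 was at least 2 in either direction.

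The secretory cell of the udder makes milk protein, lactose and fat under the control of prolactin, and sheds into milk along with other cells. After the peak of lactation the number and activity of these cells decline, and the gland is prepared for involution, when the tissue is remodelled and phagocytes clear fat and debris. Milk also carries macrophages, neutrophils and lymphocytes, which recognise and remove bacteria. Macrophages that have taken up milk lipid are known for lysosomal enzymes, fatty acid binding proteins and cholesterol handling.

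At D250, 199 genes were 4-fold higher than at D15 (1.74% of those with a ratio) and 236 were 4-fold lower (2.06%). The genes that were higher at D250 had been low at D15, with a median of 1.97 FPKM at D15, 8.66 at D90 and 14.7 at D250. Those that were lower had been abundant, with medians of 77.4, 13.4 and 11.5 FPKM. Because the D15 value entered the ratio that chose both sets, part of this contrast is built in. Most genes differed little. The median log2 over all genes was -0.04, and 8534 genes, or 74.6%, lay within 1 of 0. Of all genes with a ratio, 5493 were higher and 5941 lower at D250. The counts of list members below are to be read against these numbers and the shares above. How many of all genes were highest or lowest at D90 was not counted, so such counts below have no share to be read against. The D90 values were also not rescaled, and all D90 samples came from the second lactation.

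Summed over all named genes, FPKM came to 969227 for D15, 786492 for D90 and 490166 for D250, so D15 was 1.98-fold above D250. A gene that kept its share of the sum would therefore have a log2 near -0.98. When both groups were brought to the same sum, the median of all genes moved to 0.77, and 756 genes were counted as higher and 54 as lower. With ribosomal, milk protein and small RNA genes left out of that sum the counts were 558 and 62, and with equal upper quartiles they were 293 and 128. All 3 rescalings raise the log2 of every gene, so they could only add higher genes and remove lower ones, and 54 of the 236 lower genes were still counted as lower under all 3. List medians are given below with their value at equal sums where that turned the sign. Which of the scalings is nearest to the RNA of the cells was not tested.

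Much of the difference in the sum lay in the genes most abundant at D15. The 100 genes with the highest FPKM at D15 summed to 600836 FPKM at D15 and to 201018 at D250. This made up 83.5% of the difference, and 37 of them were ribosomal protein entries. Because the D15 value chose these genes, part of this share is built in. They include CSN3 and ENSBTAG00000013417, with 8174 and 19049 FPKM at D15 and listed at 0 at D250. LALBA, listed at 0 at D15 and with 13031 FPKM at D250, could not enter. All other named genes together went from 368391 to 289148 FPKM. The ratio also followed the level. The median log2 was 0.33 for the 2939 genes with a mean of up to 3 FPKM, -0.24 for the 2662 genes between 10 and 30 FPKM, and -1.38 for the 112 genes above 1000 FPKM. In this last class 1 gene was 4-fold higher and 20 were 4-fold lower.

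**Figure D1:**
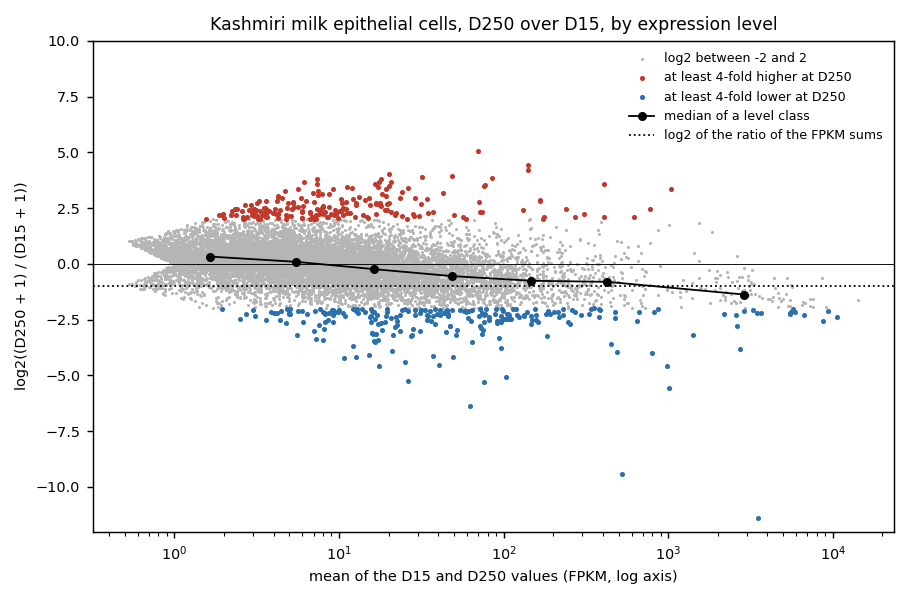
Each point is 1 of the 11434 genes with a ratio, placed by its mean level (x axis, FPKM, log axis) and its log2 of D250 over D15 with 1 FPKM added (y axis). Red and blue points are the 199 genes that were 4-fold higher and the 236 that were 4-fold lower, the black line joins the medians of 7 classes of level, falling from 0.33 to -1.38, and the dotted line at -0.98 is the log2 of the ratio of the FPKM sums.

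The cytosolic ribosomal proteins, which build the ribosome that translates messenger RNA, took a large share of the sum, in which most milk protein genes are listed at 0, and were lower at D250 almost throughout. Their 51 entries summed to 278304 FPKM at D15, 204037 at D90 and 88790.0 at D250, or 28.7%, 25.9% and 18.1% of the sum over named genes. Of 45 entries with a ratio, 42 were lower, 11 of them 4-fold, against 2.06% of all genes. With equal sums, and with equal sums of the other genes, 0 of them were 4-fold lower, and with equal upper quartiles 2 were. The median log2 of the list was -1.44, and it stayed below 0 under the rescalings, at -0.50, -0.69 and -1.17.

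RPLP1, of the acidic stalk of the large subunit, had 21400.1, 15713 and 7042 FPKM. RPS28, of the small subunit, had 17836, 9313 and 3436 FPKM and was 5.19-fold lower at D250 than at D15. RPS2 had 15240.5, 7365 and 3469 FPKM, and RPL13, of the large subunit, 9046, 5518 and 1899. In these 4 genes D90 lay between the other days. RPS12 had 11282, 11287 and 3804 FPKM and thus nearly the same level at D15 and D90. RPS27 went the other way, with 2291, 8037 and 2943 FPKM and its highest value at D90. Its fold was only 1.28, but of genes with a ratio and a symbol of their own it had among the 10 largest increases in FPKM. Ribosomal protein genes have many near-identical copies, and reads shared between copies could have been split in the counting.

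Of 50 translation factors, 28 were lower, none of them 4-fold, and the median log2 was -0.30, or 0.68 with equal sums. The table also holds eef1d, a subunit of elongation factor 1, under a lower case symbol that the list missed, and it was 4-fold lower, with 4555, 719 and 650.1 FPKM. EEF2, which moves the ribosome along the messenger, had 1366, 886 and 598 FPKM, and EEF1G, a subunit of the elongation factor that recharges EEF1A, had 3142, 1855 and 1009. The members that were 4-fold higher were EIF1, with 2.04, 20.1 and 19.9 FPKM, which takes part in start codon selection, and EEF1A2, an elongation factor known from muscle and nerve, with 0.0432, 4.49 and 3.83.

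**Figure D2:**
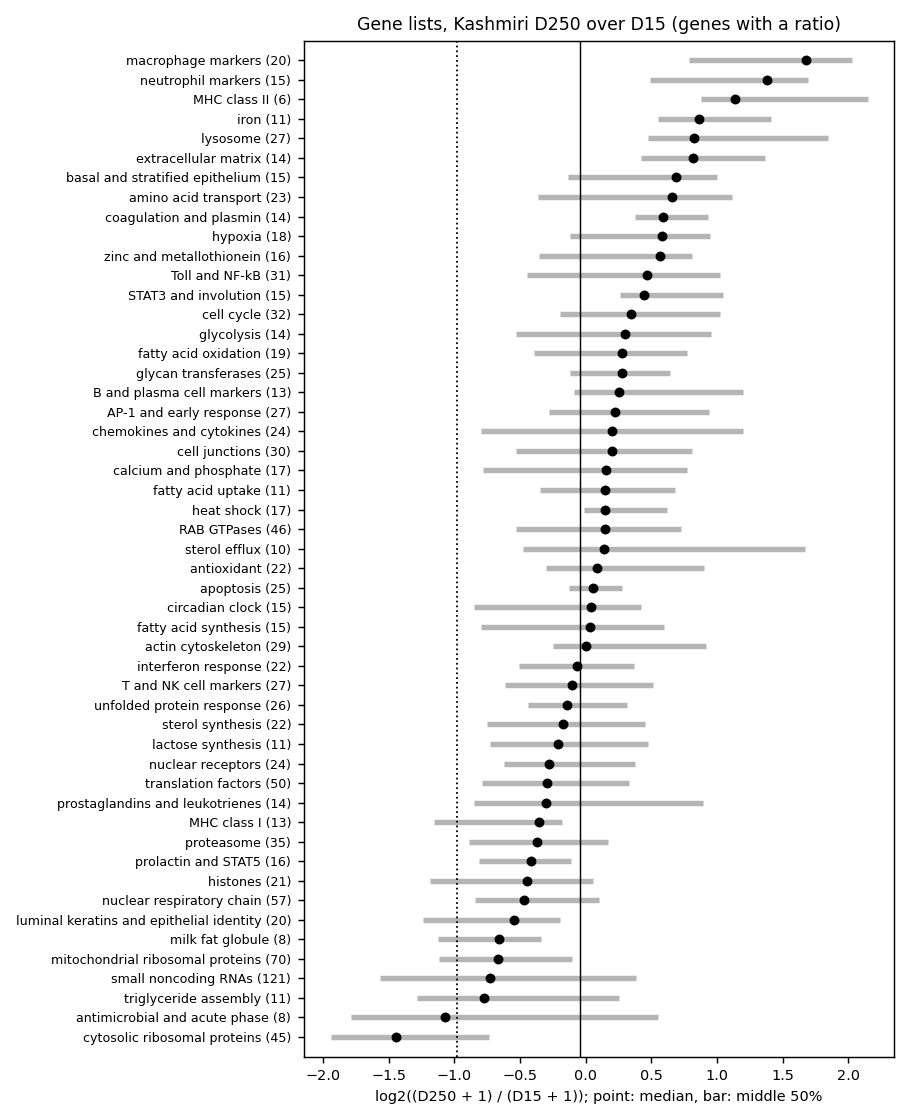
Points are the median log2 of D250 over D15 (x axis, 1 FPKM added) of each gene list with at least 5 genes with a ratio (y axis, number of genes in brackets), and bars span the middle 50% of the list's genes. The solid line is the median of all genes, -0.04, and the dotted line at -0.98 is where a gene that kept its share of the FPKM sum would lie. Macrophage markers are highest at 1.68 and cytosolic ribosomal proteins lowest at -1.44.

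Among the lists with at least 5 genes, macrophage markers had the highest median log2, 1.68. Of 20 markers with a ratio, 19 were higher at D250 and 5 were 4-fold higher, against 1.74% of all genes. Under the 3 rescalings, in the order given above, 14, 13 and 9 of them were 4-fold higher, while the count over all genes went to 756, 558 and 293. In cells captured as a bulk sample, more cells of a type and more RNA per cell cannot be told apart. GPNMB, a transmembrane glycoprotein of lipid-laden macrophages, had 3.14, 69.7 and 137 FPKM, and its 43.7-fold difference gave the largest positive log2 of all genes with a symbol of their own, 5.06. CD68, a lysosomal membrane protein used as a macrophage marker, had 11.4, 281 and 268 FPKM and was 23.5-fold higher at D250 than at D15. VSIG4, a complement receptor of resident macrophages, had 1.73, 27.3 and 31.5 FPKM. All 3 were within 2-fold of their late level at D90.

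CSF1R, the receptor for the growth factor that sustains macrophages, had 3.90, 18.9 and 31.5 FPKM, and CD163, the haemoglobin scavenger receptor, had 2.73, 9.03 and 15.9. These were still higher at D250 than at D90. Several markers that were already well expressed at D15 differed less. CD14, the co-receptor for bacterial lipopolysaccharide, had 51.8, 69.5 and 68.3 FPKM, and TYROBP, a signalling adaptor of myeloid cells, 99.6, 407 and 314. LSP1, a leukocyte protein and the only member with a ratio that was lower at D250 than at D15, had 139, 254 and 68.6. SPP1, also on the list, had 224 and 4072 FPKM and was listed at 0 at D250, so it had no ratio. ITGB2, the leukocyte integrin also called CD18, had 46.5, 153 and 64.1 FPKM. LSP1 and ITGB2 were used by the study as markers of cells other than epithelium, and both were highest at D90.

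The lysosomal list was higher as a group. Of 27 genes with a ratio, 26 were higher, 5 of them 4-fold, against 1.74% of all genes, and the median log2 was 0.83. CTSB, cathepsin B, a lysosomal protease, had 235, 909 and 1006 FPKM and was the most abundant of those that were 4-fold higher. CTSC, cathepsin C, which activates serine proteases of leukocytes, had 22.8, 88.7 and 95.2 FPKM. MITF, a transcription factor of lysosomal genes, had 1.30, 2.67 and 10.7 FPKM and was still low at D90. CTSK, cathepsin K, also 4-fold higher, shared its entry with ARNT and CTSS, so its 40.3, 238 and 221 FPKM cannot be assigned to it alone. LAMP1, a structural protein of the lysosomal membrane, was the only member that was lower at D250, with 178, 179 and 141 FPKM.

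Genes of lipid uptake and cholesterol handling that are also known from macrophages stood among the largest differences. FABP5, which carries fatty acids inside the cell, had 13.7, 210.3 and 269 FPKM, and FABP4, of the same family, 17.6, 154 and 125. LIPA, the lysosomal acid lipase, had 11.4, 109.6 and 144 FPKM, and SOAT1, which esterifies cholesterol for storage, 3.78, 18.1 and 29.8. All of these were within 2-fold of their D250 level at D90. APOE, an apolipoprotein that carries cholesterol out of cells, had 463, 1764 and 1574 FPKM. Of genes with a ratio and a symbol of their own, it was among the 10 with the largest increase in FPKM. PPARG, a nuclear receptor for fatty acids, had 0.258, 6.02 and 8.81 FPKM. PLA2G7, an enzyme of oxidised phospholipids secreted by macrophages, had 1.22, 31.2 and 22.7. The lists of fatty acid uptake and sterol efflux as a whole did not stand apart, with medians of 0.15 and 0.14, and some of their members were lower. LPL, lipoprotein lipase, had 289.7, 43.8 and 78.6 FPKM, and ABCG2, an exporter of the milk-secreting cell, 153, 33.7 and 80.2.

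LGALS3, a galectin that binds sugars on glycoproteins, had 63.0, 774 and 755 FPKM, and MMP19, a matrix metalloproteinase, 10.2, 147 and 160.3. LYZ, lysozyme, which cleaves bacterial cell walls, had 11.4, 86.5 and 139.9 FPKM. CRISP3, a cysteine-rich secretory protein of neutrophils and exocrine glands, had 5.11, 16.4 and 92.7 FPKM and was thus well below its late level at D90. SLC37A2, a sugar-phosphate exchanger known from macrophages, had 2.19, 25.8 and 39.0 FPKM. In iron handling, FTH1, the heavy chain of ferritin that stores iron, had 1005, 4004 and 2689 FPKM. This was the largest increase in FPKM of the genes with a ratio and a symbol of their own. SLC11A1, a metal transporter of the phagosome, had 8.20, 32.6 and 40.01 FPKM, and the iron exporter SLC40A1 1.80, 6.85 and 10.1. Of 11 iron genes with a ratio, 9 were higher and 1 was 4-fold higher.

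**Figure D3:**
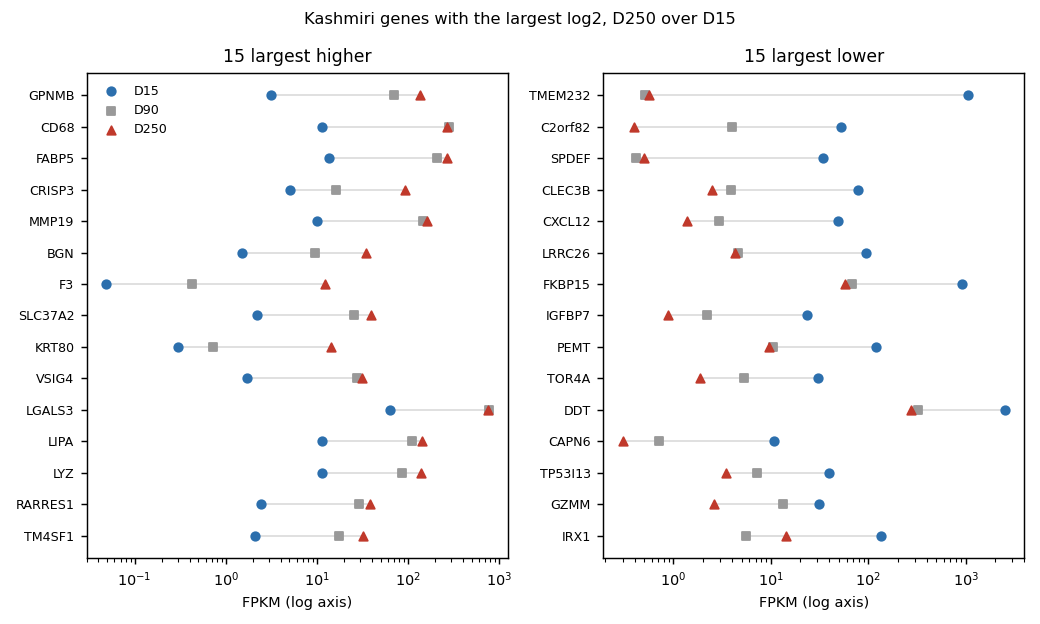
Levels in FPKM (x axis, log axis) of the 15 genes with the largest positive log2 (left) and the 15 with the largest negative log2 (right) among genes with a symbol of their own, small noncoding RNAs left out, ordered from top to bottom by log2. Circles are D15, squares D90 and triangles D250, each 1 group value. In most genes of both panels D90 lies nearer to D250 than to D15, while KRT80 at 0.728 and F3 at 0.424 FPKM are still low at D90.

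Neutrophil markers had the next highest list median, 1.38, with 13 of 15 higher and 2 of them 4-fold, against 1.74% of all genes. S100A12, a calcium-binding alarmin of neutrophils, had 39.0, 240.4 and 294 FPKM. Its relative S100A8 had 36.4, 74.3 and 106 FPKM, and S100A9, the partner of S100A8, 26.2, 65.7 and 107. CYBB, the catalytic subunit of the oxidase that makes superoxide, which macrophages also express, had 1.71, 7.41 and 14.1 FPKM. MMP25, a protease on the neutrophil surface, had 6.22, 4.43 and 4.35 FPKM.

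T and NK cell markers were near their early level at D250 and mostly highest at D90. Of 27 markers, 24 were highest at D90, and at D250 12 were higher and 15 lower than at D15, with a median log2 of -0.11 that turned to 0.68 with equal sums. CD3E, a chain of the T cell receptor complex, had 146, 659 and 135 FPKM. CD4, the co-receptor of helper cells, had 13.5, 98.9 and 29.6 FPKM, and CD8A, that of cytotoxic cells, 23.5, 27.2 and 9.06. GZMM, a granzyme of cytotoxic cells, was the only member past 4-fold, with 31.0, 13.4 and 2.59 FPKM, and PRF1, perforin, had 26.8, 52.0 and 10.4. Other genes of cytotoxic and NK cells went the other way, as NKG7, a granule membrane protein, had 25.4, 109 and 35.4 FPKM and KLRK1, an activating receptor, 4.52, 25.2 and 9.57.

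B cell markers were also mostly highest at D90, with 12 of 13 so, and none was past 4-fold. The share of all genes that were highest at D90 was not counted. CD79A, a chain of the B cell receptor, had 8.03, 42.5 and 9.77 FPKM. None of the 5 red blood cell markers found reached 1 FPKM on D15 or D250. HBB, beta globin, was listed at 0 at D15 and had 0.294 FPKM at D250.

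The label of the cells was checked against markers of the luminal epithelium, which lines the alveoli and secretes milk. Of 21 found, 19 had at least 1 FPKM on both days. KRT19, a luminal keratin, was the most abundant with 3195, 295 and 1319 FPKM. At D250, 16 of 20 were lower than at D15, 3 of them 4-fold, against 2.06% of all genes. The median log2 of -0.54 turned to 0.28 with equal sums. With equal sums, 1 marker was 4-fold lower and 1 was 4-fold higher, and with equal upper quartiles 1 was lower and 0 were higher. The lowest level was at D90 in 19 of them. KRT18, the product of which was the target of the capture antibody, had 51.3, 9.13 and 11.5 FPKM and was 4.44-fold lower at D250 than at D15. It was not among the 54 genes that remained 4-fold lower under the 3 rescalings. SPDEF, a transcription factor of secretory epithelium, had 34.5, 0.415 and 0.493 FPKM, and TFAP2C, another regulator of the luminal lineage, 8.86, 0.514 and 1.14. ELF5, the transcription factor that drives alveolar secretory cells, had 1799, 206 and 770.3 FPKM. CDH1, E-cadherin, which joins epithelial cells, was higher at D250, with 12.4, 5.05 and 31.2 FPKM. The part of epithelial and immune cell content in the differences above was not tested.

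**Figure D4:**
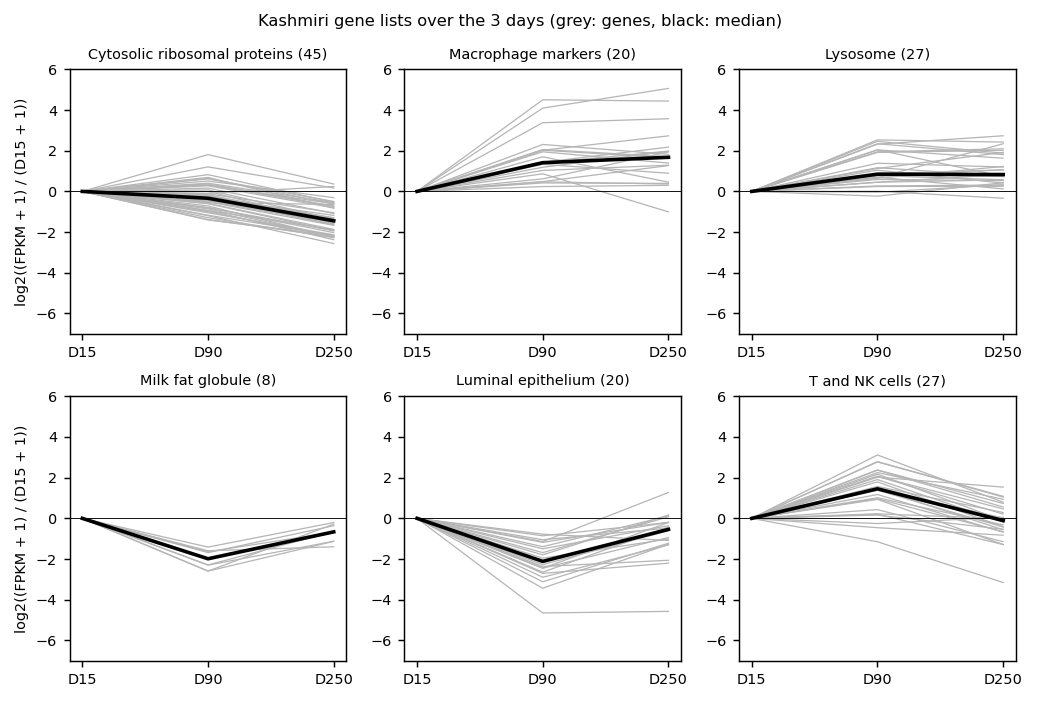
Change from D15 (y axis, log2 with 1 FPKM added to each value) at D15, D90 and D250 (x axis) for 6 gene lists, with a grey line per gene, the median in black and the number of genes with a ratio in brackets. The medians of macrophage markers and the lysosome reach 1.41 and 0.85 at D90 and stay near there, whereas milk fat globule and luminal genes are at -1.99 and -2.12 at D90 and at -0.66 and -0.54 at D250.

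Genes of antigen presentation split by class. All 6 genes of MHC class II presentation and co-stimulation with a ratio were higher at D250. Of these, 2 were 4-fold higher, against 1.74% of all genes. CD74, the invariant chain that guides class II molecules, had 240.5, 1533 and 1319.9 FPKM, and CD86, a co-stimulatory ligand on presenting cells, 2.21, 11.3 and 24.4. The class II entry BoLA DR-ALPHA, which was chosen after its values were seen, had 72.7, 342 and 405 FPKM. In the MHC class I pathway, which presents peptides from inside the cell, 10 of 13 genes were lower, none by 4-fold, and the median of -0.36 turned to 0.62 with equal sums. JSP.1, a class I gene outside the list that was chosen after its values were seen, was 4-fold lower, with 15.1 FPKM at D15, a listing at 0 at D90 and 2.89 at D250. PSMB8, a subunit of the immunoproteasome that cuts such peptides, had 606, 391 and 174 FPKM, and TAP1, which carries them into the endoplasmic reticulum, 89.6, 119 and 39.7. B2M, the light chain, had 3089.8, 7468 and 2723 FPKM.

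Signalling proteins of immune cells differed in both directions. Of 24 chemokine and cytokine genes, 3 were 4-fold higher and 3 lower, against 1.74% and 2.06% of all genes. CCL2, which attracts monocytes, had 7.85, 82.6 and 78.1 FPKM, and CCL14 103, 278 and 439.9. CXCL16, a membrane-bound chemokine of macrophages, had 17.4, 79.5 and 82.7. In the other direction, CCL5, which T and NK cells make among others, had 1109, 1649 and 187 FPKM, and CCL4 269.7, 280.2 and 46.2. CXCL12, a chemokine of stromal cells, was 35.1-fold lower at D250, with 48.7, 2.92 and 1.39 FPKM. ISG15, a ubiquitin-like protein induced by interferon, had 545, 248 and 113 FPKM and was the only one of 22 interferon response genes past 4-fold. The median of that list was -0.06, close to that of all genes, and turned to 0.78 with equal sums.

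A further group of genes was low at both D15 and D90 and high only at D250. Of the 199 genes that were 4-fold higher, 17 were at D90 still within 2-fold of their D15 level. LMO7, a protein of adherens junctions, had 0.588, 0.418 and 14.4 FPKM, and THBS1, the matrix protein thrombospondin, 4.65, 3.39 and 42.1. FN1, fibronectin, had 2.02, 2.58 and 13.5 FPKM. CYR61, a secreted matrix protein of early response, had 3.35, 2.30 and 35.3 FPKM. EMP1, an epithelial membrane protein, had 10.8, 20.05 and 50.9 FPKM, and AREG, amphiregulin, a ligand of the epidermal growth factor receptor, 1.28, 2.04 and 10.7. CYR61, EMP1 and AREG were chosen after their values were seen.

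Others were above their D15 level at D90 and further above it at D250. CLDN1, a claudin that seals tight junctions, had 0.169, 0.405 and 11.1 FPKM, and F3, tissue factor, which starts coagulation, 0.0487, 0.424 and 12.2. KRT80, a keratin of differentiating epithelium, had 0.297, 0.728 and 14.5 FPKM. KLF4, a transcription factor of epithelial differentiation, had 1.05, 2.13 and 13.1 FPKM, and HSPB8, a small heat shock protein, 0.0712, 0.405 and 9.37. BGN, biglycan, a proteoglycan of the matrix, had 1.51, 9.48 and 34.6 FPKM, and ESR1, the oestrogen receptor, 0.0854, 0.458 and 5.74. All 7 were below 2 FPKM at D15, where the ratio rests on a low value of unknown depth.

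The lists these genes belong to did not shift alike. Of 30 genes of cell junctions, 15 were higher and 15 lower at D250, and 26 had their lowest level at D90. CLDN3, a claudin of the secretory epithelium, had 151, 27.1 and 41.7 FPKM, and CLDN4, of the same family, 41.3, 20.3 and 73.5. Of 14 matrix genes with a ratio, 12 were higher and 3 were 4-fold higher, namely BGN, THBS1 and FN1, against 1.74% of all genes. Of 15 genes linked to STAT3 and involution, 12 were higher, as were 5493 of 11434 genes over all. CTSB, counted above among the lysosomal genes too, and MMP14 were 4-fold higher, against 1.74% of all genes. MMP14, a membrane-bound collagenase, had 3.62, 20.9 and 27.4 FPKM. STAT3 itself, the transcription factor that starts involution, had 42.0, 33.8 and 40.6 FPKM, and SOCS3, its feedback inhibitor, 12.2, 16.7 and 9.79.

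All 8 milk fat globule genes were lowest at D90 and lower at D250 than at D15, none by 4-fold, and their median of -0.66 turned to 0.31 with equal sums. Their median level was 580 FPKM at D15 and 245 at D250. Over all 144 genes with a mean of 300 to 1000 FPKM the median log2 was -0.81, so these genes were not lower than others as abundant. XDH, xanthine dehydrogenase, a coat protein of the globule, had 1953, 323 and 1604 FPKM, and PLIN2, which coats the droplet inside the cell, 1359.8, 225 and 620.3. FABP3, the fatty acid carrier of the lactating cell, had 10560.5, 2159 and 6720.5 FPKM.

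FASN, fatty acid synthase, had 829, 142 and 639 FPKM, and ACACA, which supplies its malonyl units, 128, 11.5 and 54.2. SREBF1, a transcription factor of lipid synthesis, stayed low after D15, with 91.8, 33.8 and 26.6 FPKM. Of the fatty acid synthesis genes, 8 of 15 were lowest at D90. In the assembly of triglycerides, 8 of 11 were. GPAT4, which adds the first fatty acid to glycerol phosphate, had 319, 73.8 and 93.2 FPKM, and GPAM, which does so in mitochondria, 86.7, 9.06 and 36.1. LPIN1, a phosphatidate phosphatase, had 51.9, 5.63 and 13.7. The medians were 0.03 for fatty acid synthesis and -0.77 for triglyceride assembly, and the latter turned to 0.12 with equal sums.

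Lactose genes differed little. Of 11, 7 were lower, as were 5941 of 11434 genes over all. None was 4-fold lower, and the median of -0.21 turned to 0.68 with equal sums. B4GALT1, the catalytic part of lactose synthase, had 112, 52.0 and 96.7 FPKM, and HK2, a hexokinase, 4.19, 5.36 and 12.6. In prolactin signalling, 12 of 16 genes were lower, with a median of -0.42 that turned to 0.45 with equal sums. STAT5A, which carries the prolactin signal to the nucleus, had 106, 78.5 and 72.8 FPKM, and PRLR, the prolactin receptor, 2.64, 0.409 and 1.08.

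Milk protein genes gave hardly any ratio. LALBA, alpha-lactalbumin, the regulatory part of lactose synthase, was listed at 0 at D15 and had 12933 FPKM at D90 and 13031 at D250. CSN3, kappa-casein, had 8174 FPKM at D15 and was listed at 0 at D90 and D250. CSN1S1, CSN2 and PAEP, alpha-s1-casein, beta-casein and beta-lactoglobulin, were listed at 0 on all 3 days. Since lactating cells express these genes strongly, a 0 here cannot be read as absence and may be a failed estimate, which was not tested. The FPKM sums and the ribosomal shares above therefore leave most of the milk protein messengers out. LPO, lactoperoxidase, an antibacterial enzyme of milk, had 249.8, 64.4 and 61.6 FPKM. PIGR, which carries antibodies into milk, had 242, 43.9 and 72.2 FPKM.

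Transporters of minerals that serve milk were lower, and others were higher. SLC30A2, which loads zinc into secretory vesicles, had 57.4, 6.25 and 10.8 FPKM, and ATP2C2, a calcium pump of the Golgi, 147, 16.6 and 30.2. ORAI1, a calcium channel of the plasma membrane, had 70.4, 21.1 and 18.6 FPKM. ATP2B1, a calcium pump of the plasma membrane, was higher at D250, with 2.62, 8.35 and 17.6 FPKM, and so was CALB1, a calcium-binding protein, with 0.0525, 0.599 and 4.77. Of 17 calcium and phosphate genes, 11 were higher and 6 lower at D250. SLC7A5, a transporter of essential amino acids, had 92.9, 23.0 and 22.9 FPKM, whereas SLC7A7, a transporter of cationic amino acids, had 3.29, 18.3 and 20.01.

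Of 70 mitochondrial ribosomal proteins, 57 were lower and 4 were 4-fold lower, against 2.06% of all genes. Their median of -0.66 turned to 0.28 with equal sums. The share over all genes rose with level. Of 2662 genes with a mean of 10 to 30 FPKM, 55 were 4-fold lower, and of 464 at 100 to 300 FPKM, 36 were. The median log2 of these classes was -0.24 and -0.76. Whether mitochondrial genes differed from others of like level was not tested. MRPL36, of the large mitochondrial subunit, had 247, 50.4 and 47.5 FPKM, and MRPS34, of the small one, 318, 74.2 and 66.9. Of 57 respiratory chain genes, 41 were lower, with a median of -0.47 that turned to 0.51 with equal sums. Their median level was 171 FPKM at D15 and 111 at D250, within the class with a median of -0.76. NDUFS6, of complex I, was the only one that was 4-fold lower, with 302, 53.5 and 68.9 FPKM. Genes of the mitochondrial genome were joined in few entries, and the entry that holds ND1 and ND2 had 183, 4885 and 1911 FPKM, while that of cytb was listed at 0 at D90 and D250. In glycolysis, LDHA, lactate dehydrogenase, was 4-fold higher, with 24.2, 134 and 124 FPKM, and PFKFB4, which regulates the pathway, was 4-fold lower, with 47.2, 4.28 and 10.4. VIM, vimentin, a filament of leukocytes and stroma, had 66.3, 454 and 286 FPKM and was the only one of 29 genes of the cytoskeleton list past 4-fold.

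Further regulators and metabolic genes are given singly, from lists whose medians lay near that of all genes. Of those named here, only EGR1 and B4GALT6 were past 4-fold. The medians of nuclear receptors and sterol synthesis, -0.28 and -0.18, turned to 0.62 and 0.78 with equal sums. EGR1, an early response transcription factor, had 1.65, 6.58 and 11.7 FPKM. RXRA, the partner of many nuclear receptors, had 33.7, 8.44 and 20.2 FPKM, and THRB, a thyroid hormone receptor, 14.3, 1.04 and 5.53. In sterol synthesis none of 22 genes was past 4-fold. HMGCS1, which makes the precursor of mevalonate, had 20.6, 50.9 and 50.6 FPKM, and MVK, mevalonate kinase, 139, 37.7 and 55.5. In fatty acid oxidation none of 19 was past 4-fold. CPT1A, which admits fatty acids to mitochondria, had 4.81, 17.3 and 14.9 FPKM. B4GALT6, which makes the glycolipid lactosylceramide, was the only glycan transferase past 4-fold, with 0.0855, 0.855 and 6.26.

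Of 15 markers of basal and stratified epithelium, 10 were higher at D250 and none was past 4-fold. KRT15, a basal keratin, had 58.8, 28.7 and 61.2 FPKM, and ACTA2, the smooth muscle actin of myoepithelial cells, 0.693, 1.65 and 2.51. S100A2, a calcium-binding protein of stratified epithelium, had 84.7, 76.8 and 149 FPKM. ITGA6, an integrin that anchors basal cells, had 6.69, 7.68 and 18.3 FPKM. Of 14 genes of coagulation and plasmin, 12 were higher. S100A10, which with ANXA2 binds plasminogen, had 57.2, 349 and 229.5 FPKM, and TFPI2, an inhibitor of plasmin and other proteases, was 4-fold lower, with 3.70, 0.248 and 0.165.

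With small noncoding RNAs left out, the largest negative log2 of a gene with a symbol of its own was that of TMEM232, which had 1051, 0.506 and 0.56 FPKM and was thus abundant at D15 alone. C2orf82 had 52.1, 3.95 and 0.394 FPKM, and CLEC3B, tetranectin, which binds plasminogen, 79.0, 3.88 and 2.50. IGFBP7, which binds insulin-like growth factors, had 23.5, 2.22 and 0.879 FPKM. PEMT, which makes phosphatidylcholine in the liver and elsewhere, had 119, 10.5 and 9.47 FPKM. The most abundant of the 15 was DDT, D-dopachrome tautomerase, with 2556, 325 and 277, followed by TMEM232 and FKBP15, with 919, 68.0 and 57.9 FPKM. In all of these but C2orf82 and IGFBP7, D90 was within 2-fold of D250. All 15 were among the 54 genes that remained 4-fold lower under the 3 rescalings. IRX1, a homeobox transcription factor, had 134, 5.62 and 14.3 FPKM, and BARX2, another, 13.3, 0.297 and 0.767, both with their lowest value at D90.

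Small noncoding RNAs, such as nucleolar RNAs, are not well captured by a library made from polyadenylated RNA. Of 121, 4 were 4-fold higher and 21 were 4-fold lower, against 1.74% and 2.06% of all genes. SNORD50 had 7047, 3.29 and 1.66 FPKM and the largest negative log2 of all genes. Of the 435 genes past 4-fold, 36 higher and 46 lower ones carried an Ensembl identifier only. Another 53 genes reached 1 FPKM on one day and were listed at 0 on the other, 29 at D15 and 24 at D250, and 26 of these were small noncoding RNAs. SPP1, osteopontin, of the macrophage list, had 224 FPKM at D15 and 4072 at D90 and was listed at 0 at D250. DCN, decorin, was listed at 0 at D15 and had 2.28 FPKM at D250. The identifier ENSBTAG00000013417, for which the table gives no symbol, had 19049 and 15387 FPKM on the first pair of days and was listed at 0 at D250.

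The level at D90 divided the 4-fold genes further. Of the 199 genes that were 4-fold higher, 117 were within 2-fold of their D250 level at D90, 17 within 2-fold of their D15 level, 59 between these ranges and 6 beyond both days by more than 2-fold. Of the 236 that were 4-fold lower, 120 were within 2-fold of their D250 level at D90, 34 within 2-fold of their D15 level, 44 between and 38 beyond both by more than 2-fold. Counted at any distance, 51 of the higher and 102 of the lower genes had a D90 value beyond both days. AZGP1, a lipid-mobilising glycoprotein, was among the 38, with 492, 48.1 and 98.4 FPKM. CCL5 and RPL13 were among the 34. Since the D15 and D250 values chose these genes, the counts only describe the course.

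The same genes were looked up in Jersey cattle, whose groups held 3 samples at D15, 2 at D90 and 3 at D250. There, 9.06% of 11258 genes with a ratio were 4-fold higher at D250 than at D15 and 3.23% were 4-fold lower. Of 186 genes that were 4-fold higher in Kashmiri and had a Jersey ratio, 53 were 4-fold higher in Jersey (28.5%) and 5 were 4-fold lower. Of 222 that were 4-fold lower in Kashmiri, 77 were 4-fold lower in Jersey (34.7%) and 7 were 4-fold higher. The median Jersey log2 was 0.91 for the first set and -1.62 for the second, against 0.07 over all Jersey genes. With equal sums, 193 genes were 4-fold higher and 24 were 4-fold lower in both breeds. The genes called in Kashmiri alone also changed then, to 756 higher and 54 lower. The share of all Jersey genes at that scaling is not given, so these counts do not measure likeness of the breeds. The breeds were not tested against each other.

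**Figure D5:**
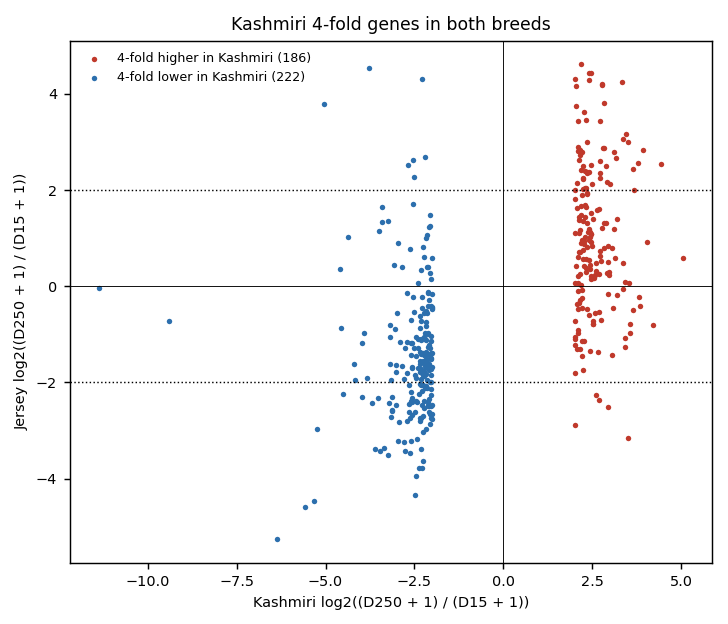
Each point is a gene that was 4-fold higher (red, 186) or 4-fold lower (blue, 222) at D250 than at D15 in Kashmiri, placed by its Kashmiri log2 (x axis) and its Jersey log2 (y axis), both with 1 FPKM added. The x axis shows the values that chose the genes, and the dotted lines mark a log2 of 2 in either direction in Jersey, beyond which 53 red points lie above and 77 blue points below.

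CD68, GPNMB, FABP5 and LGALS3, with a large difference in Kashmiri, were higher in Jersey than in Kashmiri at D15. The genes of this paragraph were chosen by their Kashmiri D15 and D250 values. Part of a breed difference at these days is therefore built in, and the breeds were not scaled to each other. CD68 had 169, 1211 and 996 FPKM in Jersey and GPNMB 39.4, 231 and 59.7, against 11.4 and 3.14 FPKM in Kashmiri at D15. FABP5 had 252, 456 and 144 FPKM in Jersey and LGALS3 1165, 1639.9 and 592. In that breed FABP5 and LGALS3 thus had more at D15 than at D250, against 13.7 and 63.0 FPKM in Kashmiri at D15 and 269 and 755 at D250. KRT80, which was high at D250 alone in Kashmiri, had 0.724, 0.671 and 0.424 FPKM in Jersey, and LMO7 0.557, 0.46 and 0.467, so that both stayed below 1 FPKM on all 3 days. CLDN1 had 2.14, 9.61 and 2.01 FPKM. Genes that were lower at D250 in both breeds included RPS28, with 8889, 2613 and 1877 FPKM in Jersey, DDT, with 302, 69.6 and 55.0, and PEMT, with 26.9, 3.40 and 4.55. TMEM232 and SPDEF, high in Kashmiri at D15, were low throughout in Jersey, TMEM232 with 1.05, 1.34 and 0.248 FPKM and SPDEF with 1.47, 0.448 and 0.343.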

How the data were processed

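RNA of milk epithelial cells was sequenced by the authors from polyadenylated RNA with a stranded library kit. They trimmed reads with Trimmomatic, aligned them by TopHat and Bowtie to the cattle genome build UMD3.1, and used Cufflinks and Cuffdiff for quantification. The values deposited by the authors are FPKM, 1 per gene and group, and the precision behind them is unknown.

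Of 61264 entries, 25121 carried a gene name. Where several entries had the same name, only that with the largest mean of the 6 group values was kept. Genes with at least 1 FPKM in either group and above 0 in both were compared as log2 with a pseudocount of 1 FPKM, and 2 or more in either direction was counted. List members were looked up by symbol in 54 lists, also within joined names, in the case written, which missed eef1d, Mx1 and IgFBp3. Genes named were the 15 with the largest log2 each way (without small noncoding RNAs, joined names and bare Ensembl identifiers), the 10 with the largest difference in FPKM each way, up to 5 members of each list by log2 and 3 by level, the milk protein genes and the cell type markers. AZGP1, BARX2, eef1d, LAMP1, SOCS3 and STAT3, and those so marked in the text, were chosen after their values were seen. Members, lists and rules were chosen with earlier results of these data known. Alternatives were other pseudocounts, filters, thresholds and 3 rescalings. The code was tested on simulated data with changes planted only in well expressed genes and no general shift between the days. That run therefore does not bear on low genes or on the scaling. Python 3.11.15 was used with pandas. Sequences and coordinates were not used here, and a few genes are not reported here.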

Additional observations from a re-analysis of the deposited data

How the results depend on the processing

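The counts of 4-fold genes depended on the settings. Against 199 higher and 236 lower genes, a pseudocount of 0.1 gave 596 and 401, and no pseudocount 689 and 433, so that the share of higher genes among them went from 45.7% to 59.8% and 61.4%. At least 1 FPKM in both groups gave 128 higher and 213 lower genes, which made the share 37.5%, and at least 10 FPKM in either made it 38.2%. A threshold of 1 on the log2 scale gave 1262 and 1638. Equal sums gave 756 and 54, equal sums without ribosomal, milk protein and small RNA genes 558 and 62, and equal upper quartiles 293 and 128, with shares of higher genes of 93.3%, 90% and 69.6%. The median log2 of all genes became 0.77 and 0.61 under the first pair of rescalings. Genes 4-fold higher in both breeds went from 53 to 193 and 132 under these, and genes 4-fold lower in both from 77 to 24 and 28. The Kashmiri counts changed too, as given above, and no Jersey share is given for these scalings.

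The rescalings move list medians and the median of all genes nearly alike. Under the other settings the distance of a list median from the median of all genes moved by less than 0.58 in 347 of 353 cases. The exceptions were extracellular matrix, which went to 1.49 without a pseudocount and to 1.93 with at least 10 FPKM, and, also at 10 FPKM, fatty acid uptake at 0.88, sterol efflux at 1.18, iron at 1.81 and amino acid transport, which reversed to -0.32. At 10 FPKM fewer genes entered each list. The log2 of single named genes moved by less than 0.58 in 1272 cases and by more in 843. No paired analysis was possible because the table held 1 value per group, and leaving out a sample was not possible for the same reason. The reads behind each value are unknown, and the 199 higher genes had a median of 1.97 FPKM at D15.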

Other observations

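Other lists held a few genes apart from the rest, with no error and no test. Among antioxidant genes, SRXN1, which repairs oxidised peroxiredoxins, had 2.78, 17.0 and 26.0 FPKM and NFE2L2, the transcription factor that drives such genes, 9.30, 12.3 and 27.2, while PRDX5, a mitochondrial peroxiredoxin, had 448, 204 and 202. Cell cycle genes had a median log2 of 0.34, and 22 of 32 were highest at D90. In the hypoxia list, HIF1A, the oxygen-regulated transcription factor, had 9.72, 18.6 and 35.6 FPKM and CA9, a carbonic anhydrase, 6.92, 2.01 and 2.32. Among unfolded protein response genes, SDF2L1, a chaperone partner of the endoplasmic reticulum, was 4-fold lower, with 88.8, 38.1 and 20.5 FPKM, and ERO1A, which forms disulphide bonds, had 1.64, 4.28 and 7.37.

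Of 46 RAB GTPases, which direct vesicle traffic, 3 were 4-fold higher, against 1.74% of all genes. RAB38, of lysosome-related organelles, had 2.77, 24.3 and 22.7 FPKM, RAB7B 5.14, 19.3 and 24.8 and RAB8B 1.97, 13.8 and 12.5. RAB25, an epithelial member, had 148, 19.9 and 64.5. The Toll-like receptor TLR4, which senses bacterial lipopolysaccharide, had 5.47, 9.45 and 20.7 FPKM, and TLR7, which senses single-stranded RNA, 0.766, 3.49 and 6.51. The NF-kB inhibitor TNFAIP3 had 76.1, 96.1 and 25.1. Among clock genes, DBP, a transcription factor with a daily rhythm, had 25.3, 6.88 and 9.78 FPKM and its relative TEF 18.2, 4.49 and 6.22, and the hour of sampling was not given in the sources used here.

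The remaining lists held no gene past 4-fold or a single one. Over all, 5941 of 11434 genes were lower. Of 35 proteasome genes 22 were lower, with a median of -0.37 that turned to 0.58 with equal sums. Of 21 histone genes 15 were lower, with a median of -0.44 that turned to 0.53. In apoptosis, BID, which links death receptors to mitochondria, had 157, 122 and 47.7 FPKM, and BNIP3, which acts in mitophagy, 19.6, 42.7 and 46.8. Among heat shock genes, CRYAB, a small chaperone, had 83.0, 68.1 and 167 FPKM. In the list of prostaglandins and leukotrienes, PTGDS, which makes prostaglandin D, had 67.2, 8.62 and 22.1 FPKM, ALOX15, a lipoxygenase, 99.0, 8.85 and 47.8, and ALOX5, the lipoxygenase of leukotriene synthesis, 0.679, 2.86 and 4.99.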
